A study of Homo sapiens and Mus musculus with 21 samples.

Results

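The genes described here encode the chains of human collagens and laminins, measured in tumours that human colon carcinoma cells formed in the mouse caecum. They were chosen by symbol among protein-coding genes of GENCODE 29: COL, a number, A and a number, or LAM, a letter A, B or C and a digit. This gave 56 of the 58336 human genes in the table, 44 for collagen chains and 12 for laminin chains. Of the 56, 30 reached 1 TPM (a transcript level scaled by length and library total) in at least 3 of the 18 tumour libraries. These 30, made up of 20 collagen and 10 laminin genes, were tested, and the other 26 are given by their levels.

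Collagens are built from chains that wind into a triple helix, either of copies of a single chain or of a fixed set of partner chains. Fibrillar collagens such as type I give connective tissue its strength and come mainly from fibroblasts. Type IV collagen and the laminins, crosses of an alpha, a beta and a gamma chain, form the basement membrane on which epithelial cells sit. In the colon, laminin-332 (with the alpha 3 and beta 3 chains of LAMA3 and LAMB3) and laminin-511 and laminin-521 (alpha 5 with beta 1 or beta 2 and gamma 1, from LAMA5, LAMB1, LAMB2 and LAMC1) lie under the epithelium.

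Cells of 2 established colon carcinoma lines, SW480 and SW620, were injected into the caecum wall of immunodeficient NSG mice, and the caecum was taken after 28 days for Smart-seq2, a full-length cDNA method. There were 6 tumour groups of 3 libraries. SW480 Mock and SW620 Mock carried a mock lentivirus. SW480 dnLEF1 and SW620 dnLEF1 carried a lentivirus with a dominant negative form of LEF1, a transcription factor of the Wnt pathway. SW620 LRP6KO had been transfected with CRISPR reagents against LRP6, a Wnt co-receptor, selected with puromycin and sorted for low LRP6 protein, so it is a sorted population rather than a stated clone. SW620 Cas9 was its mock-transfected and sorted control. All 6 groups share the NSG host, whose own genes are in another table. Whether reads of the host tissue entered the human values, those of chain genes or of markers of other cells, was not tested. The design text speaks of biological triplicates, but the labels do not tie a library to an animal, so the p-values measure the spread between these libraries.

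Each library sums to 1000000 TPM over human genes, within rounding, so the depth behind a value is unknown and no counting interval is given. The libraries held 24665 to 29691 human genes above 0, except SW480 Mock replicate 2 with 34709 and SW620 LRP6KO replicate 1 with 34114. All tests were repeated without both, and the value is given where the call of a chain gene was lost. EPCAM, CDH1, KRT8, KRT18, KRT19 and VIL1, markers of colon epithelium, were at or above 1 TPM in all 18 libraries. CDX1 reached 1 TPM in none, KRT20 in 2 and CEACAM5 in 1. In each SW620 dnLEF1 library only 6 of the 10 markers listed reached 1 TPM, so CDX2 was below it there. Summed over 15 markers of fibroblasts, muscle, vessels and leukocytes, the human table held 20.6 to 97.3 TPM per library, of which ACTA2 gave 5.69 to 60.5. POSTN, a fibroblast product, was listed at 0 in 13 libraries and never exceeded 0.43 TPM. LEF1 was at 14.8, 13.3 and 5.09 TPM in SW480 Mock and 99.4, 50.0 and 47.2 in SW480 dnLEF1, and at 0.30, 0.80 and 0.59 in SW620 Mock and 18.3, 22.5 and 24.0 in SW620 dnLEF1, as the labels say. LRP6 transcript was 0.32 ± 0.27 (SE) higher on the log2 scale in LRP6KO than in Cas9 (limma, adjusted p = 1), which does not check a sort on protein.

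Promoter windows are shown for 2 of the genes on which the results turn, from the RefSeq table for GRCh38.p14, which held 55 windows for 41 of the 56 genes, each 300 bases long and running from 250 bases before a transcription start to 50 after it. COL4A2 is shown because its start lies 127 bases from that of its partner COL4A1 on the opposite strand, and capitals mark the stretch between both starts (chr13:110307034-110307333, plus strand). LAMB3 (chr1:209651325-209651624, minus strand, 1 of its 3 windows) is shown because this gene had the smallest p-value of the members in 3 of the 6 comparisons. Its capitals mark a match to TGANTCA, the motif of AP-1 factors, which reads the same on both strands.
COL4A2: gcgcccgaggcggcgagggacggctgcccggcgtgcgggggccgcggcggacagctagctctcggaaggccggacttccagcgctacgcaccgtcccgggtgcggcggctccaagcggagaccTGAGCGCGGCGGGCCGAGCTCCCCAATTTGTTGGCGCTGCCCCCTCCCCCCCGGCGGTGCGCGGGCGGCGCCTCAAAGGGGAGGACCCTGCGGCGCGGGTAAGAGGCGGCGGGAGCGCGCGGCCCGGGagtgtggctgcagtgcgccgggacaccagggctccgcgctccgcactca
LAMB3: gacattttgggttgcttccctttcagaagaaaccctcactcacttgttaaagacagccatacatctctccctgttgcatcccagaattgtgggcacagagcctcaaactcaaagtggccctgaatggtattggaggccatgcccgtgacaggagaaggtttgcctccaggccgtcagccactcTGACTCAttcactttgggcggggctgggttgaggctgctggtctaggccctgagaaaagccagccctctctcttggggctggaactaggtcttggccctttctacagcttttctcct
The match in LAMB3, TGACTCA, has its first base at -67 from the start, and the other 2 LAMB3 windows held none. Of the 55 member windows, 3 held such a match (of LAMA3, LAMB3 and COL10A1), and 7.71% of all 35116 windows did. CTTTGAT, a motif of LEF and TCF factors, searched on both strands, was in no member window and in 2.62% of all windows. Its variant CTTTGAA was in 4 of the 55, of COL13A1, COL24A1, COL26A1 and LAMA2, and in 4.43% of all windows. GGGCGG, the GC box, was in 32 of the 55 and in 45.0% of all windows. Matches to CTTTGAT and TGANTCA can share letters. A match is a description of letters, not a bound site.

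The tumours expressed laminin chains and a short list of collagen chains. Laminin genes had the larger summed TPM in SW480 libraries, whereas the ranges of both sums overlapped in SW620 libraries. Summed TPM over the 12 laminin genes was 344 to 462 in the SW480 Mock libraries, 369 to 390 in SW480 dnLEF1 and 117 to 179 in the 12 SW620 libraries. Over the 44 collagen genes it was 197 to 307 in the 6 SW480 libraries and 104 to 172 in the SW620 libraries. The SW480 and SW620 libraries did not overlap in either sum. In bulk tissue, fewer cells of a type and less RNA per cell cannot be told apart, here or in any level below. Only 13 of the 56 genes had a mean of at least 10 TPM in any group, and 14 were at or above 1 TPM in all 18 libraries.

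**Figure D1:**
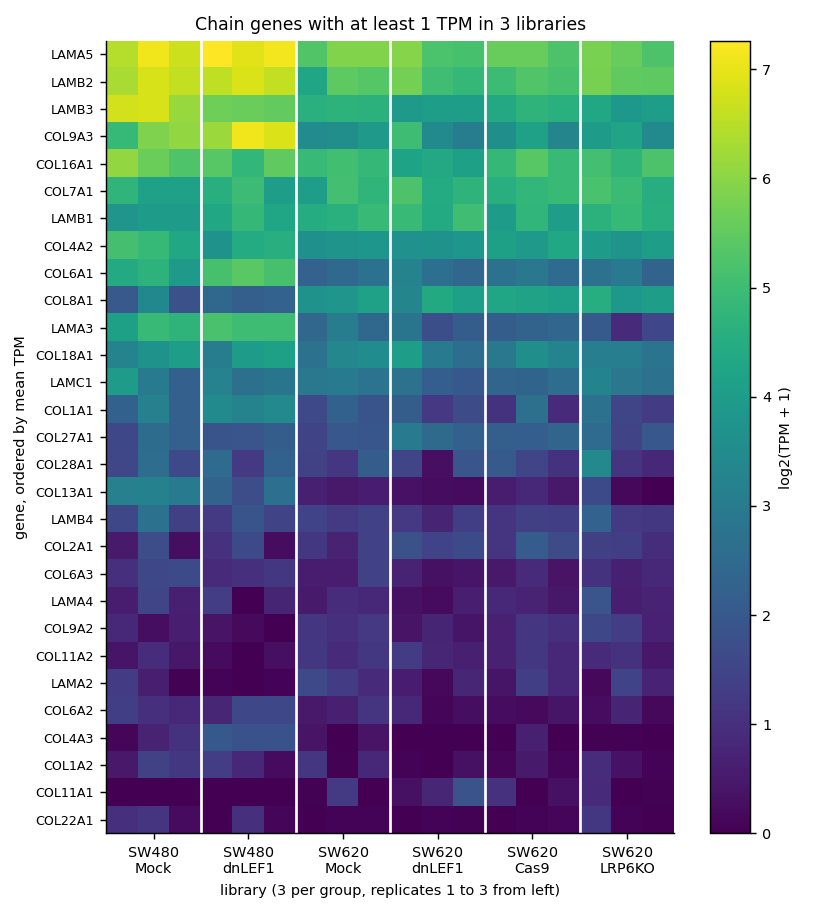
Levels of the collagen and laminin chain genes reported that reached 1 TPM in at least 3 libraries, as log2(TPM + 1) by colour, with genes in rows ordered by mean TPM and the 18 libraries in columns by group. LAMA5, LAMB2 and LAMB3 stand at the top and are brighter in the 6 SW480 columns, while COL8A1 is brighter in the 12 SW620 columns.

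By class, the highest collagen levels came from collagens other than the classical fibrillar ones. The FACIT collagens, which sit on the surface of other fibrils, were led by COL9A3 and COL16A1, and 4 of the 10 were past the filter. Of 11 fibrillar genes 6 were past it, and the highest value of any was 9.85 TPM, for COL1A1. COL7A1, the single chain of the anchoring fibrils that tie basement membrane to stroma, lay between 15.4 and 36.7 TPM in all libraries. COL18A1, a multiplexin of basement membranes and the source of endostatin, lay between 5.00 and 16.5 TPM. It shares 20149 bases with SLC19A1 on the opposite strand, at 18.2 to 30 TPM, and with the counting strand not given their reads may not have been told apart. Neither COL7A1 nor COL18A1 passed the test in any of the 6 comparisons. All 4 laminin beta genes and 4 of 5 alpha genes were past the filter. Among tested genes with lower means, COL28A1, COL27A1 and LAMB4 peaked at 9.75, 6.86 and 5.60 TPM, and none of these passed the test in any comparison.

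The clearest differences among these genes lay between the lines. In SW620 Mock against SW480 Mock, 12 of the 30 tested genes passed the test (limma on log2(TPM + 1), adjusted p under 0.05 over all 22981 genes tested), 2 higher and 10 lower in SW620. Over all genes, 10.9% were called higher and 12.9% lower, and with libraries rescaled by their median ratio 51.7% rather than 45.7% of all calls were higher. The median log2 difference was -0.43 over the 30 genes and -0.14 over all genes. The groups did not overlap for 14 of the 30 genes, 3 higher and 11 lower in SW620, beside 35.4% of all genes.

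LAMA3 and LAMB3, chains of laminin-332, the laminin of hemidesmosomes, fell from SW480 to SW620. LAMB3 (ENSG00000196878.14, chr1:209614870-209652466, minus strand) was at 107, 112 and 70.1 TPM in SW480 Mock and at 23.6, 24.9 and 24.3 TPM in SW620 Mock. The log2 difference was -1.92 ± 0.17 (SE; adjusted p = 5.49e-07), and the lowest SW480 library lay well above the highest SW620 library. LAMA3 (chr18:23689443-23956222, plus strand) was at 16.6, 28.9 and 25.5 TPM against 4.28, 7.24 and 4.34 TPM, a difference of -1.97 ± 0.31 (adjusted p = 2.03e-04). For LAMA3, as for LAMB3, no SW620 Mock library reached the lowest SW480 Mock library.

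The chains of laminin-511 and laminin-521 went in both directions. LAMA5 (chr20:62307955-62367312, minus strand), the alpha chain of both, had the highest mean of the members in both Mock groups: 87.0, 136 and 103 TPM in SW480 Mock against 37.8, 58.6 and 57.6 TPM in SW620 Mock, a difference of -1.07 ± 0.24 (limma, adjusted p = 0.00298). LAMB2 (chr3:49121114-49133118, minus strand) was at 80.2, 111 and 95.8 TPM against 18.5, 43.2 and 39.8 TPM, a difference of -1.55 ± 0.27 (adjusted p = 4.57e-04). LAMB1 (chr7:107923799-108003255, minus strand), which takes the place of LAMB2 in laminin-511, went the other way. It was at 12.9, 15.3 and 15.0 TPM in SW480 Mock against 21.6, 23.5 and 28.9 TPM in SW620 Mock, a difference of 0.73 ± 0.22 (limma, adjusted p = 0.0241). That call was lost without SW480 Mock replicate 1 (adjusted p = 0.0754) and without SW620 Mock replicate 2 (0.0516) or replicate 3 (0.101). LAMC1, the gamma chain of both trimers, had overlapping groups, at 15.1, 6.76 and 3.72 TPM in SW480 Mock and 6.44, 6.82 and 5.75 TPM in SW620 Mock.

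**Figure D2:**
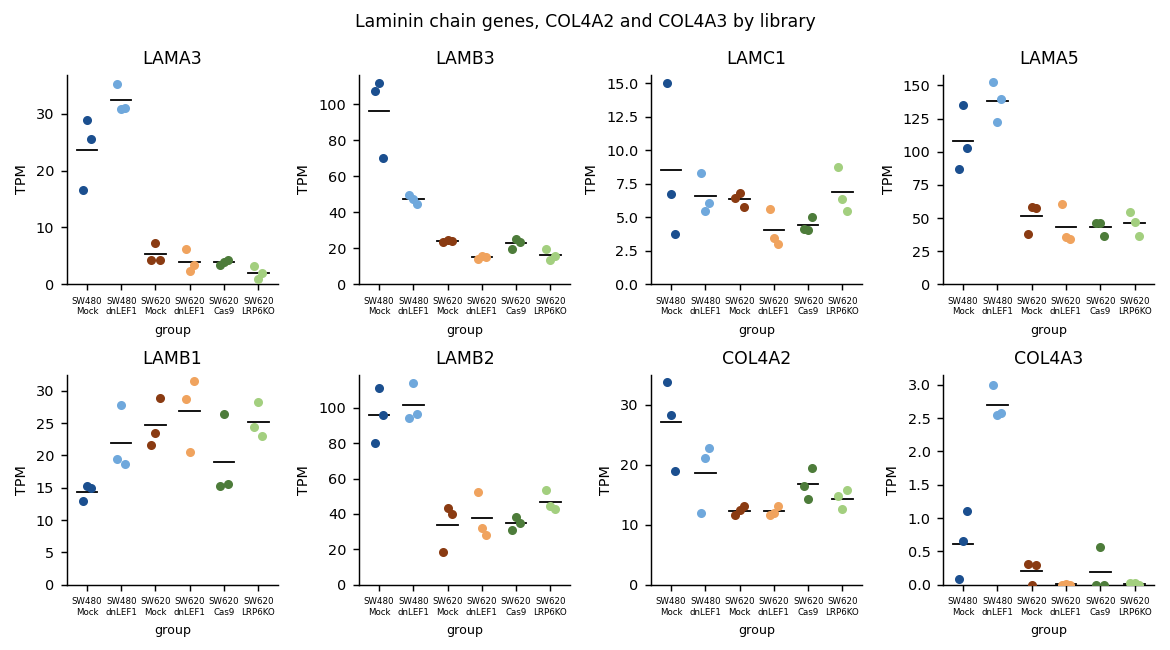
TPM of 6 laminin chain genes, COL4A2 and COL4A3 in each library (points) with the group mean (bar), for 6 groups of 3 libraries; each panel has its own axis from 0. LAMB3, LAMA3, LAMA5 and LAMB2 are high in both SW480 groups, LAMB3 is lower in SW480 dnLEF1 than in SW480 Mock, and COL4A3 reaches 2.54 to 3.00 TPM in SW480 dnLEF1 only.

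Reads of overlapping genes may enter some of these values, since the counting strand is not given in the sources used here. LAMA5 shares 908 bases with ADRM1 on the opposite strand, which was at 210 to 373 TPM, and LAMB1 shares 7932 bases with DLD, at 37.8 to 101 TPM. DLD was at 76.2 to 101 TPM in SW620 Mock and at 54.1 to 84.9 TPM in SW480 Mock. The part of such reads in LAMB1 and LAMA5 was not tested.

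Among collagens, COL13A1, COL6A1, COL9A3, COL4A2 and COL16A1 were lower and COL8A1 was higher in SW620 Mock. COL13A1 (chr10:69801867-69964275, plus strand), a transmembrane collagen, was at 8.01, 8.19 and 6.78 TPM in SW480 Mock and at 0.56, 0.42 and 0.46 TPM in SW620 Mock, a difference of -2.55 ± 0.35 (limma, adjusted p = 4.65e-05). Of the SW620 libraries, COL13A1 reached 1 TPM in LRP6KO replicate 1 alone. It was past the filter only through the line where it was high, so its call is no support on its own. COL6A1 (chr21:45981737-46005050, plus strand), a chain of the beaded filaments of type VI, was at 20.8, 25.1 and 13.9 TPM against 3.85, 4.54 and 5.59 TPM, a difference of -1.86 ± 0.26 (adjusted p = 4.79e-05). COL9A3 (chr20:62816244-62841159, plus strand), a chain of type IX, known from cartilage, was at 27.9, 56.7 and 66.3 TPM against 10.3, 10.9 and 14.2 TPM, a difference of -1.93 ± 0.43 (adjusted p = 0.00343). In these 3 genes every SW480 Mock library lay above every SW620 Mock library.

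COL4A2 (ENSG00000134871.17, chr13:110305812-110513209, plus strand), a type IV chain, was at 33.9, 28.4 and 19.0 TPM in SW480 Mock and at 11.6, 12.4 and 13.1 TPM in SW620 Mock, a difference of -1.04 ± 0.23 (limma, adjusted p = 0.00314). Its antisense genes moved with it: COL4A2-AS1 was at 2.12 to 3.46 TPM in SW480 Mock and at 0 to 0.52 TPM in SW620 Mock, and their part in the COL4A2 value was not tested. COL16A1 (chr1:31652247-31704319, minus strand), a FACIT collagen, was at 66.4, 48.6 and 37.6 TPM against 29.1, 32.3 and 27.6 TPM, a difference of -0.72 ± 0.22 (adjusted p = 0.0249). This call was lost with only the compared groups in the fit (adjusted p = 0.0527) and without SW480 Mock replicate 1 (0.12), SW480 Mock replicate 2 (0.0526), SW620 Mock replicate 1 (0.0677) or SW620 Mock replicate 3 (0.0793), and without both libraries with the most genes above 0 (0.0609). COL8A1 (chr3:99638475-99799226, plus strand), a short-chain collagen that forms networks in vessel walls and under endothelia, was the collagen that was higher in SW620. It was at 3.09, 9.38 and 2.51 TPM in SW480 Mock and at 11.9, 12.7 and 16.7 TPM in SW620 Mock, a difference of 1.47 ± 0.35 (limma, adjusted p = 0.00484).

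**Figure D3:**
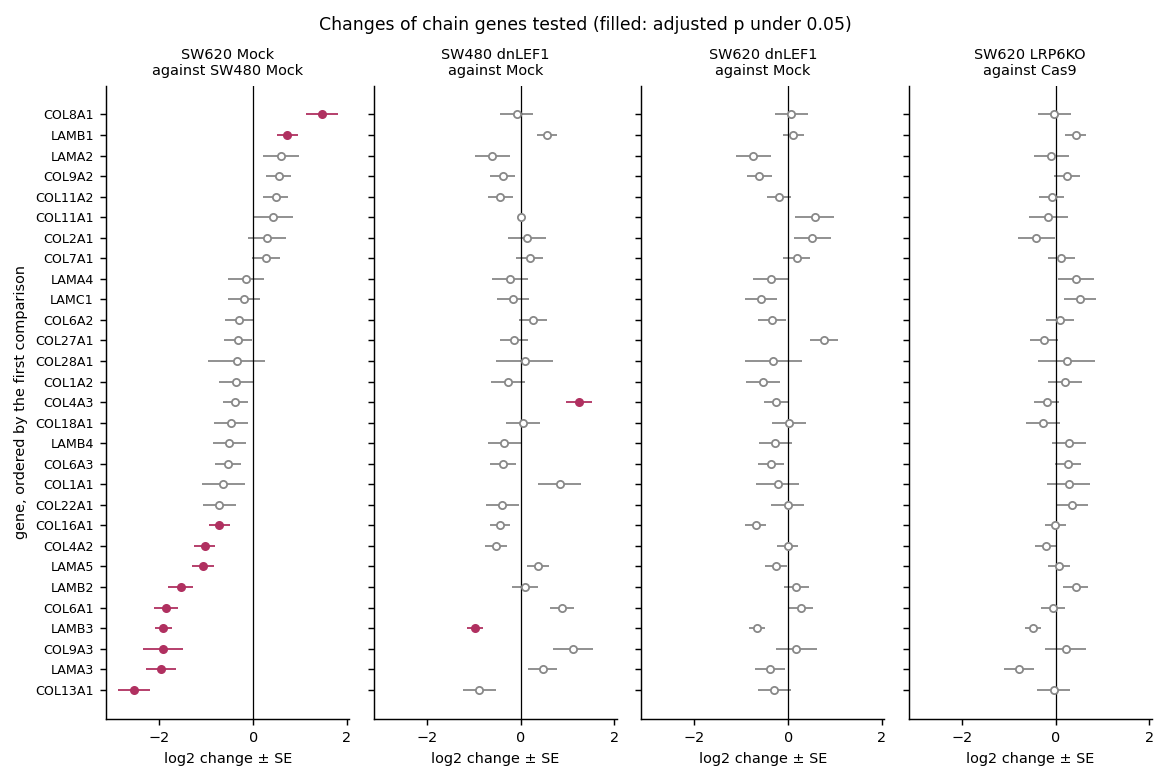
Difference of group means in log2(TPM + 1) with its standard error for the tested genes reported in 4 comparisons; filled points passed the test (adjusted p under 0.05 over all genes), and genes are ordered by the first panel. COL8A1, LAMB1 and 9 genes below 0 are filled in SW620 Mock against SW480 Mock, LAMB3 and COL4A3 in SW480 dnLEF1 against Mock, and none in the other panels.

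Genes that act on these chains also differed between the lines. Of 20 genes for collagen hydroxylation, folding and export, all tested, 3 were higher and 5 lower in SW620 Mock, with a list median of -0.39. Among them were COLGALT2, a galactosyltransferase of collagen (3.48 ± 0.21, limma adjusted p = 5.74e-09), the lysyl hydroxylase gene PLOD2 (2.58 ± 0.27, adjusted p = 2.48e-06) and the prolyl hydroxylase subunit gene P4HA2 (-2.37 ± 0.21, adjusted p = 4.22e-07). P4HA2 was at 109 to 160 TPM in the SW480 Mock libraries and 18.9 to 32.5 TPM in the SW620 Mock libraries. Of 15 receptors of collagen and laminin, 14 were tested, and 1 was higher and 7 lower, with a list median of -0.77. ITGA3, the alpha subunit of the laminin-332 receptor integrin alpha 3 beta 1, was at 36.5, 63.9 and 46.9 TPM in SW480 Mock and 5.12, 8.91 and 7.92 TPM in SW620 Mock (-2.58 ± 0.30, adjusted p = 7.89e-06). Its partner ITGB1 was the receptor gene that was higher (1.11 ± 0.14, adjusted p = 1.42e-05), and the collagen receptor kinase gene DDR1 was lower (-1.83 ± 0.24, adjusted p = 2.92e-05).

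Of 13 genes for procollagen trimming and crosslinking, 10 were tested, 1 was higher and 3 were lower, with a list median of -0.86. They included LOXL2, a lysyl oxidase (-1.41 ± 0.33, limma adjusted p = 0.00527), the procollagen protease gene ADAMTS14 (0.60 ± 0.20, adjusted p = 0.04) and PCOLCE2, an enhancer of such proteases (-0.92 ± 0.32, adjusted p = 0.0448). Of 4 other basement membrane genes, AGRN, for agrin, was lower (-1.14 ± 0.26, adjusted p = 0.00415) and HSPG2, for perlecan, higher (0.79 ± 0.27, adjusted p = 0.041). How far calls between the lines held under other settings of the fit is not given for genes other than the chain genes. Of 10 epithelial markers, 7 were tested, with a list median of -0.26. CDX2 and VIL1 passed, 1 of them higher and 1 lower in SW620 Mock. Markers of other cells moved in both directions as well. Of the 15, 10 were tested, LUM, PDGFRB and PECAM1 were higher and DES and ACTA2 lower in SW620 Mock, and their sum was 40.1 to 97.3 TPM in SW480 Mock and 32.9 to 37.8 TPM in SW620 Mock. Their part in the differences of the chain genes was not tested.

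Blocking LEF1 in SW480 tumours was compared next, to see how the chain genes stood when Wnt transcription was disturbed. LAMB3 fell and COL4A3 rose in SW480 dnLEF1 against Mock, and these 2 of the 30 tested genes passed the test. COL4A3 was among the tested genes only through its SW480 dnLEF1 values, so its call is no support on its own. Of all genes, 1.35% were called higher and 0.875% lower, and the higher share of calls went from 60.7% to 46.3% with median-ratio scaling. The median log2 change was -0.12 over the 30 genes and 0.03 over all genes. The SW480 Mock group also serves in the comparison of lines and in the difference of dnLEF1 changes between the lines. SW620 Mock serves in both of these, in SW620 dnLEF1 against Mock and in Cas9 against Mock. The values of these comparisons are therefore not independent.

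LAMB3 went from 107, 112 and 70.1 TPM in SW480 Mock to 49.8, 47.5 and 44.7 TPM in SW480 dnLEF1. The change was -0.98 ± 0.17 (limma, adjusted p = 0.00743), with no overlap between the groups. It passed in all alternatives but a fit on these 2 groups alone (adjusted p = 0.241), the same setting under which LEF1 itself missed the threshold (adjusted p = 0.087). Its partner LAMA3 did not pass, at 35.2, 30.8 and 31.1 TPM in SW480 dnLEF1, all above the 16.6 to 28.9 TPM of Mock. The TPM ratio of LAMB3 to LAMA3 within a library was 2.75 to 6.45 in SW480 Mock and 1.42 to 1.54 in SW480 dnLEF1, so the chains stood closer to even amounts in all 3 dnLEF1 libraries.

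COL4A3 (ENSG00000169031.19, chr2:227164565-227314792, plus strand), a type IV chain of specialised basement membranes such as that of the kidney glomerulus, went from 0.08, 0.66 and 1.10 TPM to 3.00, 2.54 and 2.57 TPM. The change was 1.25 ± 0.27 (limma, adjusted p = 0.0237). It was above 0.57 TPM in none of the 12 SW620 libraries. It reached 1 TPM in the 3 SW480 dnLEF1 libraries and in SW480 Mock replicate 3 alone, so it was past the filter only through the group where it was high. The call was lost with a pseudocount of 0.1 (adjusted p = 0.264), with only these 2 groups in the fit (0.401), and without SW480 dnLEF1 replicate 2 (0.0652) or replicate 3 (0.0641) or SW480 Mock replicate 1 (0.0986). The antisense gene AC097662.1, which shares 93741 bases of its span, was at 0.67 to 1.2 TPM in SW480 Mock and 0.14 to 2.18 TPM in SW480 dnLEF1. COL4A4, which starts 419 bases away on the other strand and joins COL4A3 in its trimers, was at 0.03, 0.68 and 0.43 TPM in SW480 Mock and 1.57, 0.42 and 0.96 TPM in SW480 dnLEF1, with overlap.

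In all, 9 of the 30 genes had groups that did not overlap, 6 higher and 3 lower in SW480 dnLEF1, beside 11.7% of all genes. Those that stood apart without passing the test included COL6A1, at 34.3, 41.4 and 34.5 TPM in SW480 dnLEF1 (0.88 ± 0.26, limma adjusted p = 0.0936), COL9A3, at 70.2, 137 and 117 TPM (1.12 ± 0.43, adjusted p = 0.219), and LAMB1, at 19.5, 27.8 and 18.7 TPM (0.56 ± 0.22, adjusted p = 0.234). COL13A1 stood lower, at 3.94, 2.28 and 5.29 TPM (-0.89 ± 0.35, adjusted p = 0.23), and COL1A1, the alpha 1 chain of type I collagen, was at 3.73, 7.96 and 3.68 TPM in Mock and 9.85, 8.54 and 9.74 TPM in dnLEF1. Of the 4 pathway lists, ITGA10, a collagen-binding integrin subunit, was the single gene that passed. It rose from 3.57, 9.65 and 2.65 TPM to 18.3, 23.5 and 23.9 TPM (2.02 ± 0.36, limma adjusted p = 0.00746), and missed the threshold with only these 2 groups in the fit (adjusted p = 0.148) and with a pseudocount of 0.1 (0.0511). Of 7 epithelial markers tested, CDX2 (-1.62 ± 0.28, adjusted p = 0.00696) and KRT19 (-0.66 ± 0.13, adjusted p = 0.0147) fell and none rose. The list median was -0.09, and CDH1, EPCAM and VIL1 had higher means in SW480 dnLEF1 without passing. Markers of other cells gave no call among 10 tested and summed to 40.1 to 97.3 TPM in Mock and 70.6 to 74.7 TPM in dnLEF1. Their part in the chain gene values was not tested.

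In SW620 dnLEF1 against Mock, no chain gene passed the test, beside 0.165% of all genes, or 38 genes, of which 34.2% were higher, or 55.3% of the calls with median-ratio scaling. At an unadjusted p under 0.05 there were 5 of the 30 genes and 1862 of all genes. The median log2 change was -0.25 over the 30 genes and -0.12 over all genes, and scaling moved the latter by 0.12, to 0. LAMB3 was at 23.6, 24.9 and 24.3 TPM in SW620 Mock and 13.8, 15.7 and 15.4 TPM in SW620 dnLEF1 (-0.66 ± 0.17, limma adjusted p = 0.223). The 3 dnLEF1 libraries lay below the 3 Mock libraries, and LAMB3 passed when libraries were weighted by their quality (adjusted p = 0.0165).

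COL16A1 was at 29.1, 32.3 and 27.6 TPM in SW620 Mock and 17.6, 19.9 and 16.6 TPM in SW620 dnLEF1 (-0.69 ± 0.22, limma adjusted p = 0.353). LAMA3 overlapped, at 6.13, 2.33 and 3.37 TPM in dnLEF1. Groups did not overlap for 9 of the 30 genes, 2 higher and 7 lower in dnLEF1, beside 20.9% of all genes. No gene of the pathway lists passed. Of 7 epithelial markers tested, KRT19 fell (-0.89 ± 0.13, adjusted p = 0.006) and the list median was -0.65, and markers of other cells summed to 20.6 to 26.9 TPM in dnLEF1 and 32.9 to 37.8 TPM in Mock, with no call. Their part in the chain gene values was not tested.

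Whether dnLEF1 acted differently in the lines was tested by the difference of its changes, SW620 minus SW480. None of the 30 genes passed, beside 0.718% of all genes, while 3 of the 30 and 2916 of all genes had an unadjusted p under 0.05. Over all genes 24.8% of the calls were higher, or 49.5% with scaling, which moved the median of all genes by 0.19. For LAMB3, which fell in SW480 and had a lower mean in SW620, the difference was 0.32 ± 0.25 (limma, adjusted p = 0.656). COL4A3 came nearest, at -1.50 ± 0.39 (adjusted p = 0.0892), and passed with array weights (adjusted p = 0.0435) and without SW480 Mock replicate 3 (0.0494). COL27A1, a fibrillar collagen gene, was at 0.91 ± 0.42 (adjusted p = 0.384). The LAMB3 value does not show that the lines responded alike.

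Targeting of LRP6 was compared with its own control, SW620 Cas9, and no chain gene passed. The share of all genes called was 0% too, and an unadjusted p under 0.05 was reached by 2 of the 30 genes and by 766 genes, or 3.33%, of all. The median log2 change was 0.04 over the 30 genes, or -0.07 with median-ratio scaling, and 0.07 over all genes. LAMB3 and LAMA3 had the smallest p-values. LAMB3 was at 19.7, 25.3 and 23.5 TPM in Cas9 and 19.4, 13.6 and 15.6 TPM in LRP6KO (-0.48 ± 0.17, limma adjusted p = 1). LAMA3 was at 3.43, 3.95 and 4.22 TPM in Cas9 and 3.17, 0.86 and 1.92 TPM in LRP6KO (-0.78 ± 0.31, adjusted p = 1). In both genes all LRP6KO libraries lay below all Cas9 libraries. LAMB1 was at 15.2, 26.3 and 15.5 TPM in Cas9 and 24.4, 28.3 and 23.0 TPM in LRP6KO (0.43 ± 0.22, adjusted p = 1), with overlap. Groups did not overlap for 4 of the 30 genes, LAMB2 and LAMC1 being higher and LAMA3 and LAMB3 lower in LRP6KO, beside 9.67% of all genes. Markers of other cells summed to 33.3 to 70.5 TPM in LRP6KO and 24.3 to 37.4 TPM in Cas9, with no call, and their part in the chain gene values was not tested.

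The control tumours of SW620, Cas9 against Mock, gave no call among the chain genes either, again beside 0% of all genes. An unadjusted p under 0.05 was reached by 1 of the 30 genes and by 1154 genes, or 5.02%, of all. The median log2 difference was -0.06 over the 30 genes and -0.03 over all genes. LAMB1 was at 15.2, 26.3 and 15.5 TPM in Cas9 and 21.6, 23.5 and 28.9 TPM in Mock (-0.39 ± 0.22, limma adjusted p = 1), with overlap. COL4A2 was at 16.5, 14.2 and 19.5 TPM in Cas9, all above its Mock libraries (0.40 ± 0.23, adjusted p = 1). Groups did not overlap for 6 of the 30 genes, beside 14.2% of all genes. No gene of the 4 pathway lists passed in this comparison or in LRP6KO against Cas9.

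Some chains that assemble together stood at uneven levels. COL4A1 and COL4A2 form the common type IV trimer, with 2 COL4A1 chains for each COL4A2 chain. COL4A2 was at 11.6 to 33.9 TPM in all 18 libraries, whereas COL4A1 was listed at 0 in 9 of them and was highest in SW480 Mock replicate 1 (2.53 TPM) and SW480 dnLEF1 replicate 2 (1.80 TPM). In SW480 Mock replicate 1 the ratio of COL4A2 to COL4A1 was 13.4. The printed COL4A2 window shows how close both starts lie. The gene spans share 1422 bases in GENCODE. Of the other type IV chains, COL4A3 peaked at 3.00 TPM and COL4A4 at 1.57 TPM, both in SW480 dnLEF1. COL4A5 never exceeded 0.83 TPM and was listed at 0 in 8 libraries, and COL4A6 never exceeded 1.07 TPM and was listed at 0 in 9.

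**Figure D4:**
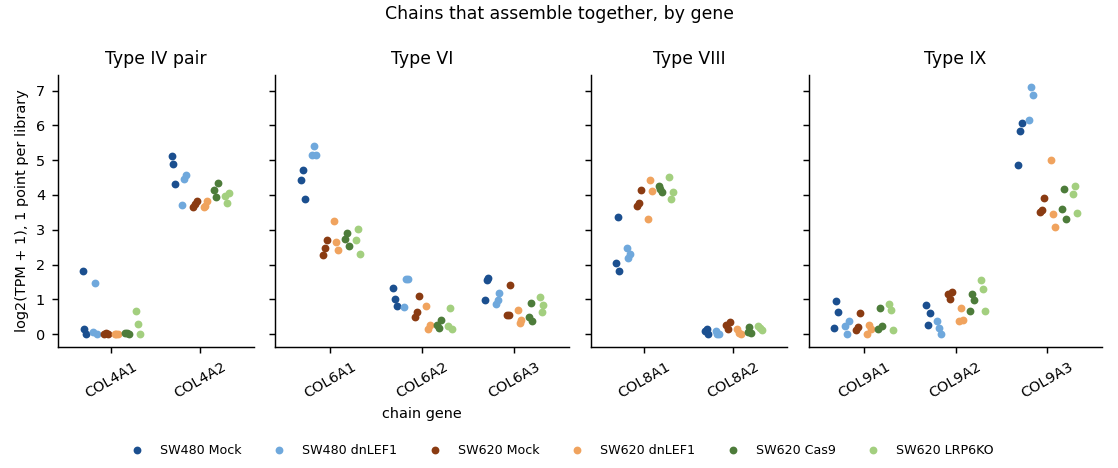
Levels of chain genes that assemble together, as log2(TPM + 1), 1 point per library and colours for the 6 groups. COL4A2, COL6A1, COL8A1 and COL9A3 lie above their partners in every library.

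Type I collagen needs 2 COL1A1 chains for each COL1A2 chain. COL1A1 was at 0.84 to 9.85 TPM and COL1A2 at no more than 1.72 TPM, and the ratio of COL1A2 to COL1A1 within a library ranged from 0 to 0.597. COL3A1, which fibroblasts make with type I, never exceeded 0.23 TPM. The same unevenness held in other families, which were picked after their values had been seen. COL6A2 and COL6A3, partners of COL6A1, stayed at or below 1.99 and 2.08 TPM. COL9A1 and COL9A2, partners of COL9A3, stayed at or below 0.93 and 1.97 TPM, and COL8A2, partner of COL8A1, at or below 0.27 TPM.

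Among laminins LAMC1 was low. This gamma chain gene, shared by laminin-511 and laminin-521, was at 3.03 to 15.1 TPM, while LAMA5 was at 34.1 to 152 TPM and LAMB2 at 18.5 to 114 TPM. The ratio of LAMB1 to LAMC1 was 0.856 to 4.04 in SW480 Mock, 2.36 to 5.08 in SW480 dnLEF1, 3.35 to 5.02 in SW620 Mock, 3.08 to 6.44 in Cas9, 2.79 to 4.44 in LRP6KO and 5.11 to 10.4 in SW620 dnLEF1, whose range overlapped that of Cas9 alone. Of the laminin-332 chains, LAMB3 exceeded LAMA3 in every library, by 1.42 times in the lowest and 15.8 times in the highest, SW620 LRP6KO replicate 2.

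By group mean, LAMA5 was highest in SW480 dnLEF1 (138 ± 15.1 TPM, SD, n = 3), followed by COL9A3 (108 ± 34.0) and LAMB2 (101 ± 10.9). The LAMA5 and LAMB2 libraries of this group did not overlap, and those of COL9A3 overlapped both. In SW480 Mock the order was LAMA5 (109 ± 24.7), LAMB3 (96.3 ± 22.8) and LAMB2 (95.7 ± 15.5), all within their spread. In the SW620 groups LAMA5 (43.1 to 51.3 TPM) and LAMB2 (33.8 to 46.9 TPM) led by mean, with overlapping libraries in each of the 4 groups. COL16A1 followed at 29.7 to 32.3 TPM in Mock, Cas9 and LRP6KO but 18 ± 1.70 TPM in dnLEF1. COL8A1 averaged 13.8 to 17.2 TPM in the 4 SW620 groups and 4 to 4.99 TPM in both SW480 groups. COL6A1 averaged 4.66 to 6.04 TPM in the SW620 groups, 19.9 ± 5.65 TPM in SW480 Mock and 36.7 ± 4.02 TPM in SW480 dnLEF1.

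The 26 genes below the filter were low in every group. Of these, 17 were under 1 TPM in all 18 libraries, and the highest value of any was 3.81 TPM, for LAMA1 in SW480 Mock replicate 2. Of the 26, 7 had their highest value in SW480 Mock replicate 2, the library with the most genes above 0, and no more than 3 in any other library. Just outside the filter, with 2 libraries at 1 TPM, were LAMA1, COL4A1, COL20A1 and COL23A1, whose highest values were 3.81, 2.53, 1.74 and 1.36 TPM. Just inside, with 3 such libraries, were LAMA4, COL22A1 and COL11A1, whose highest values were 2.78, 1.24 and 2.63 TPM. COL11A1 was listed at 0 in all 6 SW480 libraries. COL17A1, the transmembrane collagen of hemidesmosomes, reached 2.26 TPM in SW480 dnLEF1 replicate 2 and was otherwise under 1 TPM.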

How the data were processed

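Per the labels, Smart-seq2 libraries were made from caecum RNA of 18 tumour samples (6 groups of 3) and 3 PBS samples, which have no values in the human table and were not used here. The authors deposited TPM values per human gene, each library summing to 1000000. Trimmomatic 0.35, Bowtie 1.2, RSEM 1.2.31 and hg38 are named per the submitters' processing notes. Depth and counting strand are not given in the sources used here, and mouse genes were not analysed here. Genes were joined by identifier without version to GENCODE 29, leaving out 45 second copies on chromosome Y. The 22981 genes that reached 1 TPM in 3 or more libraries were compared on log2(TPM + 1), a scale that understates changes of low genes, by limma 3.58.1 with an intensity trend in R 4.3.3. All 6 groups shared a fit without replicate block, with Benjamini-Hochberg adjustment over all genes in each of 6 comparisons (threshold 0.05). The test was tried on simulated data. Named genes were members with a group mean of at least 10 TPM or a call, the partner chains, the 3 smallest p-values where no member was called, members beside the filter, LEF1, LRP6 and up to 3 called genes per pathway list. Other names were chosen after their values were seen. Of the tested members, 1 is counted but its values are not reported here. The members and lists were chosen with earlier results of these data known. Alternatives were a pseudocount of 0.1, no filter, median-ratio scaling, only the compared groups, array weights, a replicate block, each library left out, and, added later, SW480 Mock replicate 2 and SW620 LRP6KO replicate 1 left out together. Tables and figures used Python 3.11.15, numpy 2.4.6, pandas 2.3.3 and matplotlib 3.10.9.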

Additional observations from a re-analysis of the deposited data

Results flagged for a closer look

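The change of ITGA10 with dnLEF1 differed between the lines by -2.69 ± 0.51 (SE) on the log2 scale, SW620 minus SW480 (limma, adjusted p = 0.0207, difference of changes tested in 1 fit). ITGA10, a collagen-binding integrin subunit, was at 3.57, 9.65 and 2.65 TPM in SW480 Mock and 18.3, 23.5 and 23.9 TPM in SW480 dnLEF1, but at 1.99, 0.85 and 1.55 TPM in SW620 Mock and 0.41, 0.36 and 0.81 TPM in SW620 dnLEF1. The difference missed the threshold in 9 of 19 alternatives, with adjusted p from 0.00207 to 0.0645 over all settings. These included the fit on the compared groups alone (0.0645), a pseudocount of 0.1 (0.0508), and the fits without SW480 Mock replicate 1 (0.0534), SW480 dnLEF1 replicate 2 (0.0532) or 3 (0.0581), SW620 Mock replicate 1 (0.0554) or 3 (0.0535) and SW620 dnLEF1 replicate 1 (0.0554) or 2 (0.0565).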

How the results depend on the processing

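Signs were compared for 34 changes, and none reversed under any alternative. These were the called chain genes, the 3 smallest p-values where no chain gene was called, and some further genes including LEF1 and ITGA10. Changes of LRP6, of the markers and of other pathway genes were not compared. The number of chain genes past the test was 2 in SW480 dnLEF1 against Mock, and 1 with a pseudocount of 0.1. It was 0 with only the compared groups in the fit and 1 to 2 with 1 library left out. All genes called higher and lower were 311 and 201 in the main fit and 210 and 123 with that pseudocount. They were 16 and 13 of 18879 with only the compared groups, and 123 to 878 and 125 to 336 with 1 library left out. The chain gene count was 0 in SW620 dnLEF1 against Mock and 2 with array weights. Of all genes, 13 were called higher and 25 lower there, and 87 and 307 with array weights. The chain gene count was 12 between the Mock groups of the lines, and 10 to 12 with 1 library left out. It was 11 without the 2 libraries with most genes above 0, and 17 with the line difference averaged over Mock and dnLEF1. Of all 22981 genes, 2508 were called higher and 2975 lower in the main fit, and 3361 and 6022 with that average. The calls were 2376 and 2291 of 21477 without the 2 libraries, and 1960 to 2399 and 2215 to 3141 with 1 left out. For the difference of dnLEF1 changes the chain gene count was 0, 1 with array weights and 0 to 1 with 1 library left out. Of all genes, 41 were called higher and 124 lower, and 74 and 284 with array weights. Without SW480 Mock replicate 3, where the chain gene count was 1, these were 68 and 139. LRP6KO against Cas9 and Cas9 against Mock gave 0 chain genes in every setting. With array weights, Cas9 against Mock had 43 of all genes called higher and 58 lower. Why the calls moved was not tested. The fits on the compared groups held fewer libraries and also fewer genes. Of the 56 genes, 44 reached 0.5 TPM and 16 reached 5 TPM in 3 libraries. Of 72 class totals, 6 moved by more than their SD with median-ratio scaling. Same-numbered libraries of different groups did not deviate together (r from -0.133 to 0.117, and 4 of 15 correlated best with their own number). With the replicate block the counts were 2, 0, 0, 0, 12 and 0 in the order SW480 dnLEF1, SW620 dnLEF1, LRP6KO, Cas9, lines and difference, the same as without it. TPM keep no depth, so no limit of detection can be given.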

Other observations

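Levels of some matrix machinery genes, picked after their values were seen, are given here. SERPINH1, the chaperone of procollagen, was at 68.2 to 256 TPM over the 18 libraries, above every chain gene in 15 of them. Of the other basement membrane genes, HSPG2 was at 8.33 to 39.9 TPM and AGRN at 9.29 to 31 TPM, whereas the nidogen genes, whose products link laminin to type IV collagen, were low, NID1 at 0.96 to 2.38 TPM and NID2 at 0 to 1.79 TPM. ITGB4, the beta subunit of the hemidesmosome integrin that binds laminin-332, was at 31 to 160 TPM, and its partner ITGA6 at 18.7 to 58.3 TPM.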
